A study of Mus musculus with 19 samples.

Results

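The 10 genes examined here belong to the small RNA pathways and were measured in mouse oocytes and 2cell embryos: *Dicer1*, *Drosha*, *Dgcr8*, *Xpo5*, *Ago1*, *Ago2*, *Ago3*, *Ago4*, *Piwil2* and *Ddx4*. They were chosen by name, as machinery of the microRNA, endogenous siRNA and piRNA pathways, and all 10 were found among the 25891 genes of the deposited table. RNA of MII oocytes, the mature oocytes that wait in metaphase for fertilization, and of 2cell embryos had been sequenced in 19 libraries. The libraries compare females with and without deletion of both *Cpeb3* alleles in the oocyte. CPEB3 is an RNA-binding protein of the oocyte. The labels list 5 CPEB3+/- (Het) and 5 CPEB3-/- (KO) libraries of MII oocytes, and 5 CPEB3+/- and 4 CPEB3-/- libraries of 2cell embryos. The females were BL6 mice aged 6 to 10 weeks, primed with 5 IU PMSG and given 5 IU hCG after 48 h, and the embryos were cultured in M16 medium and collected 37 h after hCG. According to the methods, *Cpeb3* was floxed and deleted by a Cre that the ZP3 promoter drives in oocytes alone, controls also carried Cre, with a single floxed allele, and each library came from pooled cells. Embryos are named here by the genotype of the mother. The study describes wild-type sires for the knockout females, so that a 2cell embryo called CPEB3-/- came from a CPEB3-/- oocyte and carried a paternal wild-type allele. The labels do not say whether libraries of a group came from separate females, so p values measure the spread between libraries.

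In the microRNA pathway the nuclease DROSHA and its partner DGCR8 cut hairpins from primary transcripts, exportin 5 (encoded by *Xpo5*) carries them out of the nucleus, DICER trims them to short duplexes, and Argonaute proteins bind the resulting strand and use it to find target mRNA. Endogenous siRNAs are cut by DICER from long double-stranded RNA without DROSHA and DGCR8. Mouse oocytes are known for an active siRNA pathway, which relies on an oocyte form of DICER, while their microRNAs have little activity. The piRNA pathway of germ cells works without DICER, with PIWI proteins such as MILI (encoded by *Piwil2*) and helicases such as the germ cell marker VASA (encoded by *Ddx4*).

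The deposited values are FPKM, fragment counts divided by a length and by the depth of the library. The length in them proved to be the span of the gene, introns included. With that length, 86.4% to 90.4% of a library's low values came out whole to within 0.05 fragments, and with exon length 11.0% to 13.6% did, where 10% would by chance. Within a gene the span makes no difference to a ratio between libraries, but between genes it does. Levels of different genes are therefore given here as FPKM per exon length, the deposited value times gene span over the total length of the exons. The depth read from these steps was 17.1 M to 23.5 M fragments per library, with a median of 19.6 M. All 10 oocyte markers were above 0.1 FPKM in every group, and the 9 markers of the 2cell stage found in the table summed to 42.0 to 67.4 FPKM in MII and 430 to 605 FPKM in 2cell libraries. The 10 markers of cumulus and granulosa cells in the table, of 15 listed, summed to 0.282 to 0.501 FPKM in MII and 0.716 to 1.28 FPKM in 2cell libraries, with *Foxl2* and *Pgr* at 0 in MII. *Cpeb3* itself was not lower in the libraries labelled CPEB3-/-. In MII libraries its FPKM was 0.0755 ± 0.0240 (SD, n = 5) in CPEB3+/- against 0.162 ± 0.0325 (n = 5) in CPEB3-/-, and in 2cell libraries 0.0303 ± 0.0149 (n = 5) against 0.0555 ± 0.0129 (n = 4). The value covers the whole gene and not the deleted exons alone, and genotypes below are those of the labels. By PCR the study found no *Cpeb3* mRNA in knockout oocytes, and by immunoblot it found CPEB3 protein significantly reduced, with some remaining. Values are relative to each library's total, so that fewer cells in a pool and less RNA per cell cannot be told apart.

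The study relates CPEB3 to U-rich and polyadenylation elements of the 3′UTR, so these were read in the 10 genes. The longest 3′UTR annotated for each gene was used (GENCODE vM21, GRCm38). U-rich elements were TTTTAT and, of the same kind, TTTTAAAT as well as TTTTAAGT and the variants TTTTACT as well as TTTTCAT. The polyadenylation hexamers were AATAAA as well as ATTAAA, all searched on the strand of the gene. Bases of a U-rich element can be part of a hexamer too, and both kinds were counted separately. The windows of 30 bases below hold, in capitals, the element nearest to the end of the 3′UTR. They are shown for the genes that changed between the stages or are described in most detail.
Dicer1, U-rich, chr12:104688246-104688275, minus strand: ataaattctgtaTTTTATattgtacgtgag
Dicer1, hexamer, chr12:104687745-104687774, minus strand: ataattgtagtcAATAAAgttattgtctgt
Drosha, hexamer, chr15:12935255-12935284, plus strand: gttgtcttaatgATTAAAtgttccgtttct
Ago2, U-rich, chr15:73095926-73095955, minus strand: atgatgtggataTTTTATaaagttattttg
Ago3, U-rich, chr4:126333333-126333362, minus strand: catggatagccTTTTAAATttaccttttaa
Ago3, hexamer, chr4:126332734-126332763, minus strand: aagcagaaagctAATAAAgtttttaatcaa
Ddx4, U-rich, chr13:112598371-112598400, minus strand: acaaatgtttgcTTTTATaatatacagatt
Ddx4, hexamer, chr13:112598344-112598373, minus strand: attttccttgcaAATAAAagatgaaacaca
Of the 10 genes, 9 held a U-rich element somewhere in the 3′UTR, where 64.9% of 10470 genes tested in either stage did. *Drosha*, with a 3′UTR of 169 bases, held none, and its line above is a hexamer 19 bases from the end. The 3′UTRs of *Ago3* (12742 bases) and *Ago2* (11064 bases) were longer than those of 99.9% and 99.8% of genes, against a median of 1133 bases. They held 24 and 20 U-rich elements, which is 1.88 and 1.81 per kb. *Ago2* held hexamers too, the nearest 24 bases from the end, though no line above shows it. *Ddx4* had a short 3′UTR of 612 bases with 3 such elements, 4.90 per kb, more than in 95.2% of genes. Within the last 100 bases a U-rich element was present in 3 of the 10 genes (*Ago1*, *Ago2* and *Ddx4*), where 21.2% of 10101 windows of that length held one, and a hexamer in 7 of 10, where 79.3% did. A match is a description of the sequence and no measure of binding.

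*Dicer1* was the most abundant of the 10 genes in MII oocytes. Its level per exon length was 32.2 ± 2.87 FPKM (SD, n = 5) in CPEB3+/- and 37.7 ± 1.87 FPKM (n = 5) in CPEB3-/- oocytes, above 96.0% and 96.5% of the genes in the table. *Ddx4* came next at 7.98 ± 1.42 and 6.65 ± 2.59 FPKM, then *Ago3* at 4.43 ± 0.401 and 4.89 ± 0.230 FPKM and *Drosha* at 3.05 ± 0.497 and 4.05 ± 0.854 FPKM. In CPEB3+/- oocytes these 4 genes had ranges that did not meet, while in CPEB3-/- oocytes *Ddx4* overlapped *Ago3*, and *Ago3* overlapped *Drosha*. *Ago2*, *Xpo5* and *Dgcr8* lay lower, between 0.516 and 1.29 FPKM on average, with *Ago2* and *Xpo5* overlapping in both genotypes. *Ago4*, *Piwil2* and *Ago1* stood at the bottom, each with a mean at or under 0.151 FPKM, and their order did not hold beyond their spread.

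The order differed in 2cell embryos. *Dicer1* stood at 4.17 ± 0.301 FPKM per exon length (n = 5) in CPEB3+/- and 4.85 ± 0.327 (n = 4) in CPEB3-/- embryos. *Drosha*, at 6.00 ± 0.818 and 7.67 ± 1.01 FPKM, lay above it without overlap in both genotypes. The ratio of *Dicer1* to *Drosha* on this scale was 10.7 ± 1.31 and 9.70 ± 2.31 in CPEB3+/- and CPEB3-/- MII oocytes, and 0.704 ± 0.107 and 0.640 ± 0.0938 in 2cell embryos. *Ddx4* was the highest in CPEB3+/- embryos (7.23 ± 1.70 FPKM), overlapping *Drosha*, and in CPEB3-/- embryos (4.62 ± 0.435 FPKM) it came after *Dicer1*, which it overlapped. *Ago3* followed at 2.92 ± 0.341 and 2.83 ± 0.388 FPKM. Below it, *Ago2*, *Piwil2*, *Xpo5* and *Dgcr8* formed a run of overlapping neighbours between 0.457 and 1.30 FPKM on average, with *Ago1* and *Ago4* last. Divided by the longest transcript in place of all exons, *Dicer1* was again first in MII oocytes (54.7 and 64.1 FPKM) and *Drosha* first in both groups of 2cell embryos (7.80 and 9.96 FPKM). This division keeps the same fragments, so it does not separate introns from exons.

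**Figure D1:**
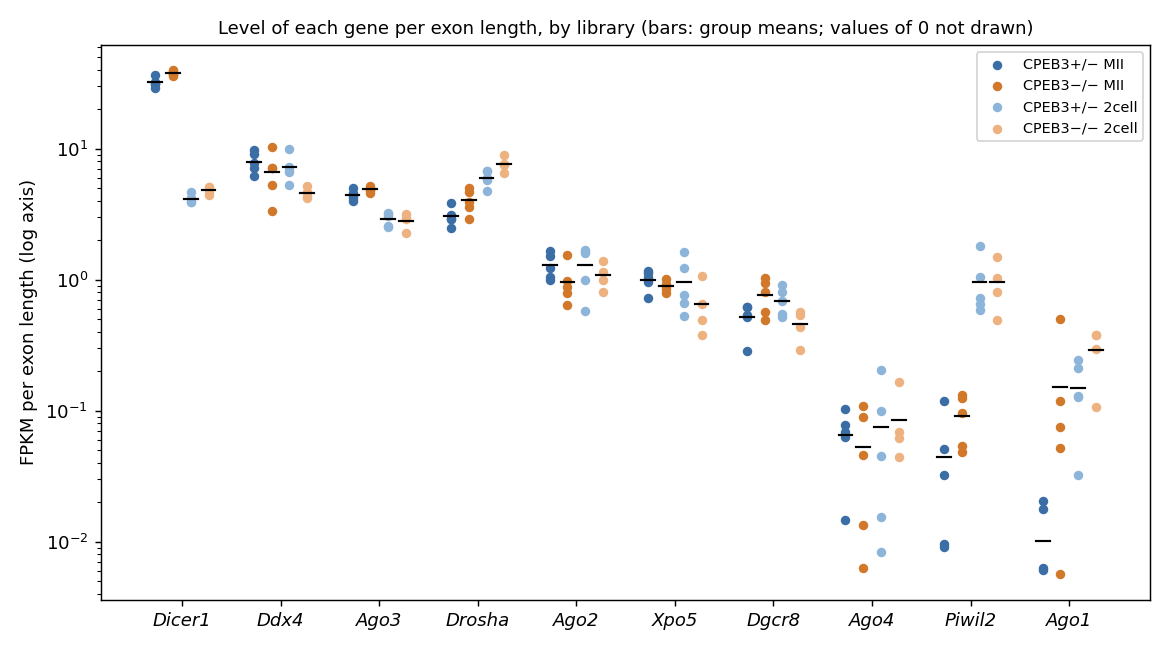
Level of each of the 10 genes as FPKM per exon length (log axis), with 1 point per library, colours for the 4 groups and a bar at the group mean. *Dicer1* lies above every other gene in MII oocytes (means of 32.2 and 37.7 FPKM) and near *Drosha*, *Ddx4* and *Ago3* in 2cell embryos, while *Piwil2* has means of 0.966 and 0.954 FPKM in 2cell embryos and under 0.1 FPKM in MII oocytes.

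The change from MII oocyte to 2cell embryo was tested within each genotype. The model was fitted in limma on log2(FPKM + 0.1) of the deposited values, adjusted p values are those of Benjamini and Hochberg over all tested genes, and a gene was called when the adjusted p was under 0.05 and the fitted change above 1.5-fold. *Dicer1* and *Ago3* fell in both genotypes, and no member rose by this rule. These were 2 of the 7 genes that passed the filter on low values (0.1 FPKM in at least 4 libraries). Of all 15786 tested genes, 66.6% were called in CPEB3+/- and 65.1% in CPEB3-/-, so that a share of 2 in 7 was under the background. Lower calls were 28.5% and 27.0% of all tested genes, near the members' share, and higher calls 38.0% and 38.2%. *Ago1*, *Ago4* and *Piwil2* did not pass the filter. The filter and the added 0.1 FPKM are strict here, since on the deposited scale 0.1 FPKM equals between 65.7 fragments (*Ago1*) and 216 fragments (*Drosha*) at the median depth. Folds of the less abundant members are understated by it, and the same fit on values per exon length, chosen after the length had been tested, is given beside it where it changes a call. The 2 adult alpha globin genes summed to between 46.2 and 146 FPKM in 2cell libraries and between 0.0512 and 0.428 FPKM in MII libraries. They were the 2 blood markers of 5 found in the table, and their part in the stage changes, like that of the cumulus cell markers above, was not tested. The share of fragments in genes also differed between the stages without overlap, at 60.0% to 62.0% in MII and 49.3% to 53.3% in 2cell libraries of CPEB3+/-, and 55.9% to 60.5% and 44.7% to 48.4% in those of CPEB3-/-. Its part was not tested either.

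*Dicer1* was listed at 8.10, 8.48, 8.22, 7.57 and 9.59 FPKM in the CPEB3+/- MII libraries and at 1.21, 1.07, 1.03, 1.02 and 1.10 FPKM in the CPEB3+/- 2cell libraries. In the CPEB3-/- libraries it was listed at 9.48, 10.5, 9.31, 9.69 and 10.2 FPKM in MII oocytes and at 1.17, 1.34, 1.22 and 1.33 FPKM in 2cell embryos. Every MII library lay several times above every 2cell library, and the SD was under 10% of the mean in each group. The mean was 7.72-fold lower in 2cell embryos in CPEB3+/- and 7.77-fold lower in CPEB3-/-. The fitted log2 changes were -3.07 (standard error 0.0948, adjusted p = 2.86e-15) and -3.01 (standard error 0.101, adjusted p = 1.25e-14, limma). The values rest on 9914 to 14250 fragments per MII library and 1128 to 1633 per 2cell library. They cover all annotated promoters of *Dicer1* (6 transcripts on chromosome 12, 104687742 to 104751952, minus strand of GRCm38), so that the oocyte form of the enzyme is not separated from the somatic form.

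*Ago3*, 1 of the 4 Argonautes, was listed at 0.736, 0.677, 0.711, 0.854 and 0.775 FPKM in CPEB3+/- MII oocytes and at 0.429, 0.434, 0.540, 0.516 and 0.548 FPKM in CPEB3+/- embryos. The CPEB3-/- libraries gave 0.816, 0.778, 0.849, 0.819 and 0.882 FPKM in MII oocytes and 0.541, 0.499, 0.490 and 0.387 FPKM in embryos. Every MII library was above every embryo library of its genotype. The groups of the 2 stages were also without overlap for 58.9% (CPEB3+/-) and 59.3% (CPEB3-/-) of tested genes. The fitted log2 changes were -0.73 (standard error 0.106, adjusted p = 5.58e-06) and -0.82 (standard error 0.113, adjusted p = 3.33e-06, limma). With the trend on GC content removed they were -0.44 and -0.42, still with adjusted p values of 0.000453 and 0.00122 but under 1.5-fold.

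*Drosha*, the nuclease of the first cut, was higher on average in embryos. It was listed at 0.167, 0.156, 0.133, 0.157 and 0.206 FPKM in CPEB3+/- MII oocytes and at 0.363, 0.321, 0.363, 0.309 and 0.257 FPKM in CPEB3+/- embryos. The CPEB3-/- libraries gave 0.254, 0.212, 0.271, 0.157 and 0.193 FPKM in MII oocytes and 0.404, 0.483, 0.408 and 0.352 FPKM in embryos. The stages did not overlap in either genotype, as for 58.9% (CPEB3+/-) and 59.3% (CPEB3-/-) of tested genes. The mean was 1.97-fold higher in CPEB3+/- and 1.89-fold higher in CPEB3-/- embryos. The fitted log2 changes of 0.51 (adjusted p = 0.000595) and 0.58 (adjusted p = 0.000371, limma) passed the threshold on p and stayed under 1.5-fold. On values per exon length *Drosha* was called higher in both, with log2 changes of 0.75 (standard error 0.146, adjusted p = 0.000126) and 0.78 (standard error 0.155, adjusted p = 0.000171). Single libraries aside, the alternatives gave 0.13 to 0.84 in CPEB3+/- and 0.17 to 0.80 in CPEB3-/-. It was called in 4 and 8 of all 30 alternatives.

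*Dgcr8*, the partner of *Drosha*, did not follow it. It was listed at 0.113, 0.136, 0.0626, 0.134 and 0.117 FPKM in CPEB3+/- oocytes and 0.119, 0.114, 0.175, 0.150 and 0.199 FPKM in CPEB3+/- embryos, with a log2 change of 0.11 (adjusted p = 0.508, limma). In the CPEB3-/- libraries it was listed at 0.225, 0.108, 0.207, 0.124 and 0.177 FPKM in oocytes and 0.117, 0.0633, 0.0956 and 0.123 FPKM in embryos, with a log2 change of -0.49 (adjusted p = 0.00906), under 1.5-fold. The ranges overlapped in both genotypes, and per exon length the gene was called lower in CPEB3-/- alone (-0.75, standard error 0.250, adjusted p = 0.0122). The difference between the genotypes in this change had a log2 value of -0.60 (95% interval -1.06 to -0.15, unadjusted p = 0.0118) and an adjusted p of 0.0946, and was not called. *Dgcr8* overlaps *Trmt2a*, a tRNA methyltransferase gene, and whether fragments were counted by strand is not given in the sources used here. *Xpo5*, the exporter of the hairpins, was listed between 0.122 and 0.196 FPKM in MII and between 0.0638 and 0.273 FPKM in 2cell libraries, and was not called in either genotype (log2 -0.23, adjusted p = 0.232, and -0.37, adjusted p = 0.0731, limma).

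Of the remaining Argonautes, *Ago2* encodes the one whose slicing of targets is best known. It was listed at 0.193, 0.237, 0.165, 0.156 and 0.263 FPKM in CPEB3+/- oocytes and 0.0909, 0.157, 0.266, 0.259 and 0.251 FPKM in CPEB3+/- embryos, with overlap and a log2 change of -0.18 (95% interval -0.56 to 0.19, adjusted p = 0.359, limma). In CPEB3-/- libraries the log2 change was 0.02 (95% interval -0.37 to 0.42, adjusted p = 0.914). *Ago2* overlaps *Chrac1* on the other strand at its 3′ end, and *Chrac1* was listed at 0.0478 ± 0.0345 FPKM in CPEB3+/- oocytes and 0.604 ± 0.141 FPKM in CPEB3+/- embryos. *Ago1* and *Ago4*, which lie beside *Ago3* on chromosome 4, had few fragments. For *Ago1*, 4 of 5 CPEB3+/- oocyte libraries held no more than 3 fragments, the highest 3.89, and the CPEB3+/- embryo libraries between 4.95 and 38.6. In CPEB3-/- it held 0.992 to 92.4 fragments in oocytes and 16.7 to 57.5 in embryos, which overlap. *Ago4* held between 0.990 and 27.8 fragments in the 19 libraries, and 5 of them were at or under 3.

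*Ago3* held the largest share of the Argonautes on the scale per exon length, with any fragments in introns or overlapping genes included. Of the summed FPKM per exon length of the 4 Argonautes, it held 76.5% ± 4.42 in CPEB3+/- and 81.0% ± 6.78 in CPEB3-/- oocytes, and 66.9% ± 7.39 and 66.1% ± 2.00 in embryos. *Ago2* held 22.2% ± 4.60 and 15.8% ± 4.36 in oocytes and 28.4% ± 6.37 and 25.4% ± 4.52 in embryos. *Ago1* held between 0% and 7.29% in oocyte libraries and between 0.883% and 8.91% in embryo libraries, and *Ago4* under 4% in each library. The shares of *Ago3* overlapped between the stages in CPEB3+/- (71.5% to 82.7% and 59.3% to 77.9%) and did not in CPEB3-/- (70.0% to 88.2% and 63.4% to 68.2%).

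**Figure D2:**
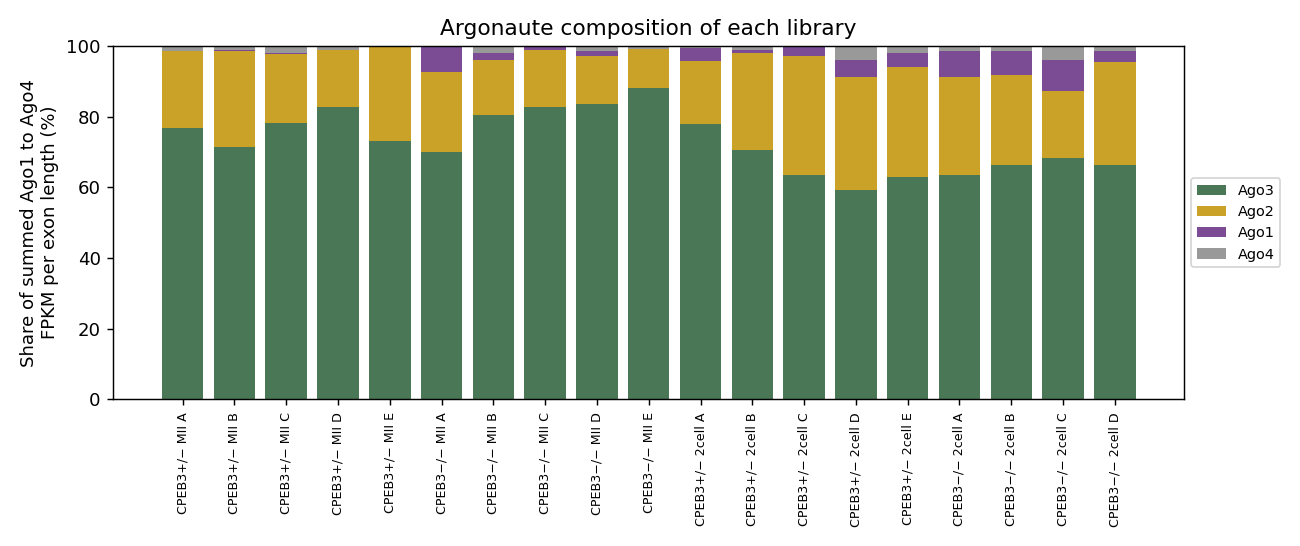
Share of each Argonaute in the summed FPKM per exon length of *Ago1* to *Ago4* (vertical axis, percent), with 1 bar per library (horizontal axis). *Ago3* holds more than 59% of every bar, *Ago2* most of the rest, and *Ago1* no more than 8.91% (CPEB3-/- 2cell library C), with 7.29% in CPEB3-/- MII library A as its highest share among MII libraries.

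In the piRNA pathway, *Piwil2* was nearly absent from MII oocytes. It held 0.990 to 14.7 fragments in CPEB3+/- and 5.57 to 14.9 in CPEB3-/- oocyte libraries, and 56.5 to 192 and 50.1 to 148 in embryo libraries. The stages did not overlap in either genotype, which also held for 58.9% (CPEB3+/-) and 59.3% (CPEB3-/-) of tested genes. Means were 0.00409 ± 0.00418 and 0.00845 ± 0.00356 FPKM in oocytes and 0.0897 ± 0.0470 and 0.0886 ± 0.0387 FPKM in embryos. The gene passed no filter on the deposited scale. On values per exon length it passed mainly through its 2cell libraries, where it is high, so that its fitted changes of 2.72 (CPEB3+/-) and 2.28 (CPEB3-/-) on the log2 scale are given as a description with no test. *Ddx4* was listed at 0.504, 0.348, 0.542, 0.432 and 0.395 FPKM in CPEB3+/- oocytes and 0.296, 0.407, 0.368, 0.386 and 0.554 FPKM in CPEB3+/- embryos. These ranges overlapped, and the gene was not called (log2 -0.33, adjusted p = 0.170). In CPEB3-/- the log2 change was -0.46 (adjusted p = 0.0735, limma), and without MII library A, the lowest of its group, it was -0.68 with an adjusted p of 0.00393.

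On values per exon length all 10 genes entered the fit. Of the 7 that had also passed on the deposited scale, 3 were called in CPEB3+/- and 4 in CPEB3-/-, where 64.7% (CPEB3+/-) and 63.6% (CPEB3-/-) of 20889 genes were. Higher calls made up 37.0% and 37.2% of genes on that scale and lower calls 27.7% and 26.4%. These were *Dicer1* and *Ago3*, lower, and *Drosha*, higher, in both genotypes, and *Dgcr8*, lower, in CPEB3-/-. *Ago1*, like *Piwil2*, passed that filter mostly through its 2cell libraries. Its fitted change in CPEB3+/- (log2 1.06) depends on the added 0.1 and is likewise a description. None of the 7 genes had a stage change that differed between the genotypes on the deposited scale (limma, 1 with an unadjusted p under 0.05, where 23.1% of genes had one and 7.64% were called). Per exon length it was 0 of 10, where 5.14% were called.

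**Figure D3:**
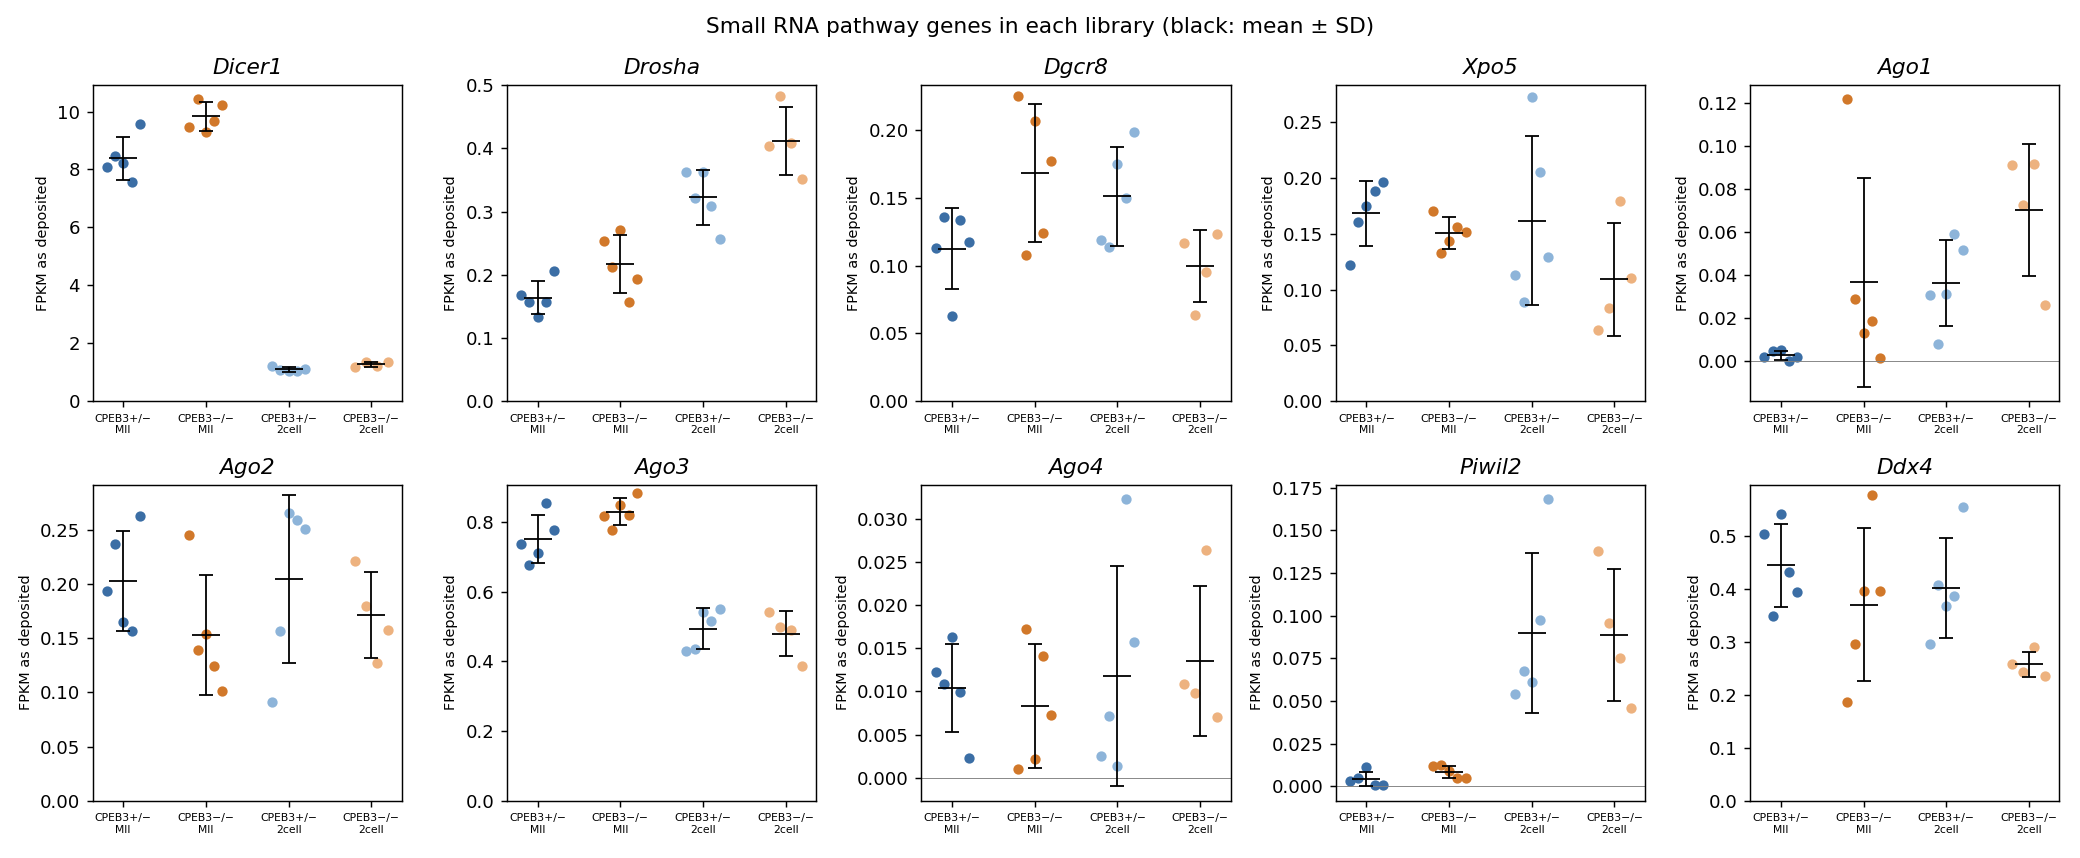
Deposited FPKM of each gene (vertical axes, 1 panel per gene, scales differ) in every library, by group (horizontal axes), with the mean and SD in black. *Dicer1* and *Ago3* are lower and *Drosha* and *Piwil2* higher on average in both groups of 2cell embryos than in either group of MII oocytes, and *Ddx4* in 2cell embryos is the single case in which the genotypes do not overlap.

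The comparison of genotypes in MII oocytes called none of the 7 genes that passed its filter, where 12.9% of 10515 tested genes were called (limma, adjusted p under 0.05 and above 1.5-fold). At an unadjusted p under 0.05 there was 1, *Ago2*, where 37.1% of genes had one, and on values per exon length again 0 of 7 were called, where 14.6% of 14546 genes were. The 10 oocyte markers summed to 1805 to 1880 FPKM in the CPEB3+/- and 1084 to 1457 FPKM in the CPEB3-/- MII libraries, and their part in the differences below was not tested. The share of fragments in genes overlapped (60.0% to 62.0% and 55.9% to 60.5%). The ranges of the genotypes overlapped for all 10 genes, where 16.3% of tested genes did not overlap. *Ago2* was listed at 0.246, 0.139, 0.153, 0.124 and 0.101 FPKM in CPEB3-/- oocytes. Of these, 4 lay below every CPEB3+/- library and library A lay among them. The log2 difference was -0.34 (standard error 0.149, 95% interval -0.67 to -0.01, adjusted p = 0.128). *Dicer1* had a log2 difference of 0.13 (95% interval -0.06 to 0.32, adjusted p = 0.296), an interval that holds no change of 1.5-fold. The same held for *Ago3* (0.04, interval -0.18 to 0.26). For *Xpo5* (-0.15, interval -0.40 to 0.09) and *Drosha* (0.20, interval -0.07 to 0.46) it held on this scale, but per exon length their intervals reached to -0.60 and 0.60. Scaled to the same sum, *Dicer1* stood at 0.31 (interval 0.13 to 0.49, adjusted p = 0.0221, limma), still under 1.5-fold. The intervals of *Dgcr8* (0.27, -0.06 to 0.61) and *Ddx4* (-0.33, -0.85 to 0.19) reach past 1.5-fold. In *Ddx4* the spread was wide among the CPEB3-/- libraries, which were listed at 0.187, 0.296, 0.395, 0.578 and 0.396 FPKM.

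In 2cell embryos none of the 7 genes was called by the same rule, where 18.3% of 14051 tested genes were, and 1 had an unadjusted p under 0.05, where 34.3% of genes had one. The share of fragments in genes was 49.3% to 53.3% in CPEB3+/- and 44.7% to 48.4% in CPEB3-/- embryos, without overlap, and its part in the differences was not tested. The gene with that unadjusted p was *Ddx4*. It was listed at 0.259, 0.244, 0.291 and 0.236 FPKM in CPEB3-/- embryos, and all 4 lay below the 5 CPEB3+/- libraries (0.296 to 0.554 FPKM). It was the only 1 of the 10 genes whose genotypes did not overlap in embryos, where 20.0% of tested genes did not. The mean was 1.56-fold lower. The fitted log2 difference was -0.52 (standard error 0.174, 95% interval -0.91 to -0.13, adjusted p = 0.0638, limma), and on values per exon length, where the added 0.1 weighs less, it was called at -0.71 (standard error 0.185, adjusted p = 0.0220). On that scale 1 of 9 genes tested was called, where 16.1% of 19137 genes were. With the trend on GC content removed the value of *Ddx4* was -0.30 (unadjusted p = 0.112), and scaled to the same sum -0.25 (unadjusted p = 0.176).

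None of the other members passed the threshold between the embryos. *Dgcr8* (log2 -0.36, interval -0.75 to 0.03, adjusted p = 0.179) and *Xpo5* (-0.33, interval -0.89 to 0.22, adjusted p = 0.374) had intervals that reach past 1.5-fold. For *Dicer1* (0.15, interval -0.16 to 0.46) and *Ago3* (-0.08, interval -0.42 to 0.25) the interval held no change of 1.5-fold in this scaling. Scaled to the same sum, *Dicer1* stood at 0.47 (interval 0.15 to 0.80, adjusted p = 0.0396, limma, under 1.5-fold) and the interval of *Ago3* reached 0.59, so that a change of that size was not excluded for either. *Drosha* had a log2 difference of 0.23 (interval -0.14 to 0.60) and *Ago2* of -0.17 (interval -0.67 to 0.34). *Piwil2* had nearly the same mean in both, 0.0897 and 0.0886 FPKM, over a spread of 0.0460 to 0.168 FPKM. *Ago1* was listed at 0.0306, 0.00776, 0.0311, 0.0589 and 0.0516 FPKM in CPEB3+/- and at 0.0909, 0.0722, 0.0914 and 0.0261 FPKM in CPEB3-/- embryos. The mean of *Ago1* was 1.95-fold higher in CPEB3-/- embryos, with ranges that overlap.

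**Figure D4:**
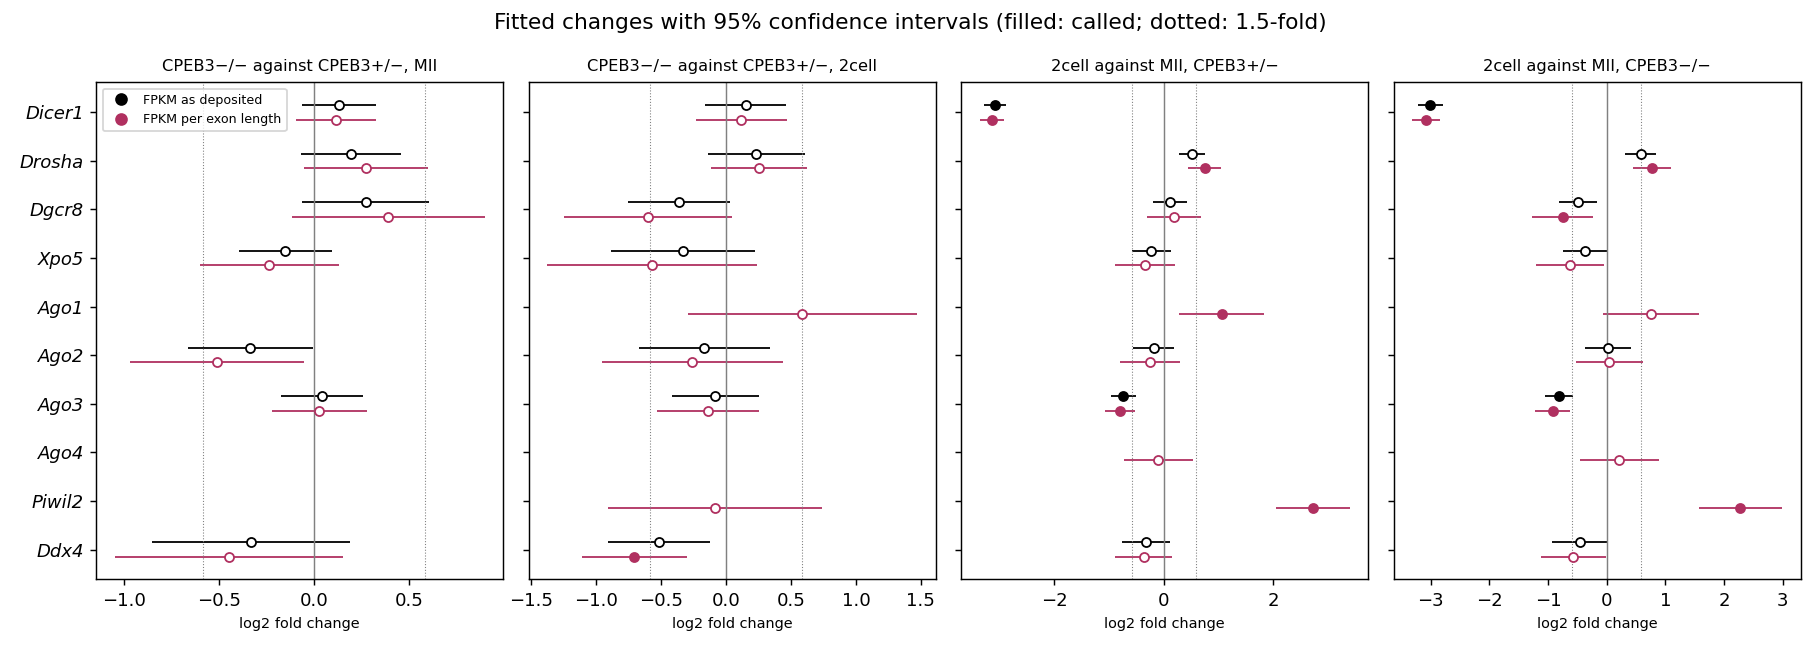
Fitted log2 fold change (horizontal axes) with 95% confidence interval for each gene (rows) in 4 comparisons (panels), from deposited FPKM (black) and from FPKM per exon length (red), with filled points for called genes and dotted lines at 1.5-fold. *Piwil2* and *Ago1* entered the stage panels mainly through 2cell libraries, and their points are a description. Between genotypes the single filled point is *Ddx4* in 2cell embryos per exon length (-0.71), and between stages *Dicer1* stands apart near -3.

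The scaling between libraries moves the frame of these values. Over all tested genes the median log2 change between the stages was 0.20 in CPEB3+/- and 0.21 in CPEB3-/- after trimmed scaling, 0.36 and 0.32 in the values as deposited, and -0.17 and -0.07 when all libraries were scaled to the same sum. Between the genotypes that last scaling moved the median from 0.01 to 0.15 in MII oocytes and from -0.01 to 0.26 in 2cell embryos. Relative to that median in the trimmed scaling, the stage changes of *Dicer1* and *Ago3* are larger and those of *Drosha* smaller than the values above.

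Cofactors of the microRNA and siRNA pathways were described from a list of 28 genes, all in the table. In MII oocytes 1 of 21 tested was higher in CPEB3-/-, *Trim71*, an RNA-binding ubiquitin ligase, at 0.227 ± 0.0662 against 0.109 ± 0.0426 FPKM (log2 0.59, adjusted p = 0.0240, limma), and 20 did not pass, where 5.59% of all tested genes were called higher and 7.29% lower. The median log2 difference of the list was 0.08, and 0.01 over all tested genes. Without CPEB3+/- library A, C or D, or CPEB3-/- library A, *Trim71* was no longer called, with log2 values of 0.49 to 0.57, nor was it with the GC trend removed (0.42). In 2cell embryos 2 of 22 tested were higher, 3 lower and 17 not called, with a median of -0.01, equal to that of all genes, of which 8.41% were called higher and 9.85% lower. *Limd1*, a partner of Argonaute complexes, stood at 0.733 ± 0.0946 against 0.404 ± 0.0494 FPKM (log2 0.68, adjusted p = 0.0162), and *Tnrc6c*, of the GW182 family that links Argonautes to mRNA decay, at 0.346 ± 0.0642 against 0.184 ± 0.0231 FPKM (log2 0.61, adjusted p = 0.0294). The helicase gene *Dhx9* was lower, at 0.829 ± 0.130 against 1.84 ± 0.266 FPKM (log2 -1.11, adjusted p = 0.00259), as were *Ncbp2*, of the cap-binding complex (log2 -0.83, adjusted p = 0.00760), and the exonuclease gene *Eri1* (log2 -0.67, adjusted p = 0.0303). The calls of *Eri1* and *Tnrc6c* lay close to the threshold. *Eri1* lost its call without any of CPEB3+/- A, B, D or E or CPEB3-/- A, B or C, and *Tnrc6c* without CPEB3+/- D or E or any CPEB3-/- library, over ranges of -0.70 to -0.59 and 0.52 to 0.65. With the GC trend removed *Limd1* (0.52, adjusted p = 0.0505), *Tnrc6c* (0.53, adjusted p = 0.0515) and *Eri1* (-0.46, adjusted p = 0.120, limma) were not called, and *Dhx9* and *Ncbp2* were.

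From MII oocyte to 2cell embryo, 6 of 23 tested cofactors rose and 7 fell in CPEB3+/-, and 5 rose and 7 fell in CPEB3-/-, with medians of -0.16 and -0.07 beside 0.20 and 0.21 over all genes. Of all tested genes 38.0% and 38.2% were called higher and 28.5% and 27.0% lower, and the counts include genes that passed the filter through a single stage, such as *Ncbp1*. *Ncbp1*, the large cap-binding subunit, was under 0.1 FPKM in every MII library, with means of 0.0289 ± 0.0108 FPKM in MII and 1.95 ± 0.325 FPKM in 2cell libraries of CPEB3+/- (log2 3.87). *Dhx9* rose from 0.130 ± 0.0498 to 1.84 ± 0.266 FPKM (log2 2.91). *Tsn*, a subunit of the C3PO nuclease that helps to load small RNAs, fell from 6.71 ± 0.682 to 0.670 ± 0.0844 FPKM (log2 -3.38, adjusted p = 7.92e-15). *Hsp90aa1*, a chaperone of Argonaute loading, fell from 128 ± 6.02 to 17.8 ± 1.89 FPKM (log2 -3.09). Next in each direction were *Ran* (log2 0.83), the partner of exportins, and *Tnrc6c*, which fell from 0.618 ± 0.166 to 0.184 ± 0.0231 FPKM. In CPEB3-/- the largest changes were those of *Ncbp1* (3.64), *Dhx9* (1.59) and *Tarbp2* (from 0.309 ± 0.0883 to 1.19 ± 0.384 FPKM), a partner of DICER, upward, and of *Tsn* (-3.39), *Hsp90aa1* (-3.06) and *Eri1* (-1.89) downward.

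Of 29 other piRNA pathway genes, 26 were in the table. In MII oocytes 2 of 16 tested were higher in CPEB3-/-, 1 was lower and 13 were not called, where 12.9% of all tested genes were called (5.59% higher and 7.29% lower). *Piwil1*, which encodes the PIWI protein MIWI, stood at 0.287 ± 0.0546 against 0.146 ± 0.0266 FPKM (log2 0.59, adjusted p = 0.0101, limma), *Mael* at 0.518 ± 0.0868 against 0.292 ± 0.0672 FPKM (log2 0.59, adjusted p = 0.0283), and *Tdrkh*, a Tudor protein gene, at 0.645 ± 0.163 FPKM in CPEB3-/-, with a mean 1.55-fold lower (log2 -0.67, adjusted p = 0.0184). *Piwil1* and *Mael* lie close to 1.5-fold and lost their calls when single libraries were left out, *Piwil1* without CPEB3+/- A or C or CPEB3-/- B or E (log2 0.52 to 0.56) and *Mael* without CPEB3+/- A or B or CPEB3-/- B or D (log2 0.49 to 0.55). *Tdrkh* lost its call without CPEB3-/- library A (-0.56). With the GC trend removed *Piwil1* (0.45) and *Tdrkh* (-0.54) were under 1.5-fold. In 2cell embryos 1 of 17 was called, where 18.3% of all tested genes were. It was *Piwil1*, with 0.183 ± 0.0593 FPKM in the CPEB3-/- group against 0.0637 ± 0.0113 FPKM in the CPEB3+/- group (log2 0.74). All its CPEB3+/- libraries lay under 0.1 FPKM, so that it passed the filter only through the group in which it is high, and these values are given as a description with no test. It was not called without CPEB3-/- library B, C or D (log2 0.62 to 0.77) or with the GC trend removed (0.58). The median log2 difference of the list was -0.09 in oocytes and -0.04 in embryos.

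Between the stages, 5 of 21 tested piRNA genes rose and 9 fell in CPEB3+/-, and 4 rose and 8 fell in CPEB3-/-, with medians of -0.28 and -0.34 beside 0.20 and 0.21 over all genes. Here too 38.0% and 38.2% of all tested genes were called higher and 28.5% and 27.0% lower, and the counts include genes that had to differ, since their libraries of the lower stage were all under 0.1 FPKM. These were *Pnldc1*, *Fkbp6* and *Rnf17* in both genotypes, *Tdrd5* and *Piwil1* in CPEB3+/- and *Exd1* in CPEB3-/-, and *Gtsf1l* was listed at 0 in some MII libraries. *Tdrd12*, a Tudor protein gene of piRNA production, fell from 5.07 ± 0.132 to 0.325 ± 0.0929 FPKM in CPEB3+/- (log2 -3.85, adjusted p = 2.30e-13, limma). *Asz1*, a mitochondrial scaffold gene of the pathway, fell from 1.85 ± 0.153 to 0.132 ± 0.0193 FPKM (log2 -3.27), and *Tdrd5* stood at 1.31 ± 0.302 FPKM in MII and 0.0836 ± 0.00898 FPKM in 2cell libraries (log2 -3.10). *Gtsf1l* was listed from 0 to 0.257 FPKM in MII and from 4.01 to 9.83 FPKM in 2cell libraries (log2 4.92). *Pnldc1*, the trimmer of piRNA ends, stood at 0.0247 ± 0.0136 FPKM in MII and 0.285 ± 0.0777 FPKM in 2cell libraries (log2 1.52), and *Mael* rose by 1.23 on the log2 scale. In CPEB3-/- the same 6 genes led, with log2 changes of -3.72 (*Tdrd12*), -2.87 (*Asz1*), -3.03 (*Tdrd5*), 5.39 (*Gtsf1l*), 1.17 (*Pnldc1*) and 0.69 (*Mael*).

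Genes with the most similar pattern over the 19 libraries were sought for 3 members among 5278 genes with a mean of at least 1 FPKM, by the root mean square difference of centred log2(FPKM + 0.1). For *Dicer1* these were *Rspo2* (0.153) and *Sfr1* (0.155). *Rspo2* went from 3.37 and 3.98 FPKM in CPEB3+/- and CPEB3-/- oocytes to 0.468 and 0.505 FPKM in embryos. For *Ago2* they were *P4hb* (0.203) and *Arhgap11a* (0.246), and for *Ddx4* they were *Vps26a* (0.169) and *Gm6485* (0.194). *Vps26a* stood at 5.01, 4.09, 4.25 and 2.98 FPKM in CPEB3+/- oocytes, CPEB3-/- oocytes, CPEB3+/- embryos and CPEB3-/- embryos. It was lowest in the last, as was *Ddx4*, and this likeness is what it was chosen by.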

How the data were processed

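RNA of pooled mouse MII oocytes and 2cell embryos was measured in 19 libraries. Libraries were prepared with a SMART-seq v4 kit. Per the submitters' processing notes and the methods, Trim Galore 0.4.1 and HISAT2 2.0.5 (GRCm38) were used for trimming and mapping, and the authors made the deposited FPKM with SeqMonk. Although its name speaks of raw counts, the table holds FPKM per kb of gene span, and 1.07% of its values lie above 0 but below 1e-06. There were 0 columns not used. Counts were not used, so tests that need counts were not run.

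Groups were taken from the labels. The 10 genes, the 2 lists of other pathway genes and the markers were chosen with earlier results of these data known. All 10 members are named, and of each list up to 3 called genes per direction and comparison, those with the greatest fitted change. Library scaling was by trimmed means of log ratios (30% of log ratios and 5% of levels trimmed). log2(FPKM + 0.1) was fitted in limma 3.58.1 (R 4.3.3) with a variance trend. Genotypes were compared within a stage among genes with 0.1 FPKM in 5 (MII) or 4 (2cell) libraries. Stages and their interaction with genotype came from 1 fit of 4 group means to all 19 libraries. Exon lengths, GC content and 3′UTRs were from GENCODE vM21, and 25640 of 25891 genes had an exon length. A fragment count is a value times gene span and depth, and a floor of 3 fragments covers counting error only. The depth was 17.1 M to 23.5 M fragments per library, and 44.7% to 62.0% of these fell in genes. Alternatives were no scaling, scaling to the same sum, a pseudocount of 1, no filter, a filter of 1 FPKM, no variance trend, no fold threshold, the replicate letter as a block, removal of the loess trend on GC content (span 0.5), other sets of libraries in the fit and each library left out. Values per exon length and fragments scaled by depth alone (filter and pseudocount of 0.5) were added after seeing the data. Tables and figures were made in Python 3.11.15 (pandas 2.3.3, numpy 2.4.6, matplotlib 3.10.9, scipy 1.17.1).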

Additional observations from a re-analysis of the deposited data

Results flagged for a closer look

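*Ago1* in CPEB3-/- MII library A stood apart from the other 4 libraries of its group. It was listed there at 0.121 FPKM, or 92.4 fragments, and the next highest library at 0.0286 FPKM. The gap made up 0.773 of the whole range, above the critical value of 0.71 for 5 samples in Dixon's test. Of 40 groups examined (10 genes in 4 groups), this was the only 1 beyond its critical value, where chance gives about 1 in 20. In the same library *Ago2* (0.246 FPKM), *Dgcr8* (0.225 FPKM) and *Xpo5* (0.171 FPKM) were the highest and *Ddx4* (0.187 FPKM) and *Ago4* (0.000997 FPKM) the lowest of the CPEB3-/- MII libraries. Its markers of cumulus and granulosa cells summed to 0.282 FPKM, the lowest of all libraries, and its oocyte markers to 1084 FPKM, the lowest of the MII libraries. The part of these in the value of *Ago1* was not tested.

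For *Dhx9* the difference between genotypes was not the same in both stages. The interaction was -1.32 on the log2 scale (standard error 0.294, adjusted p = 0.0104, limma). In MII oocytes the FPKM was 0.130 ± 0.0498 with CPEB3+/- against 0.187 ± 0.0714 with CPEB3-/- (n = 5 each), and it was listed at 1.84 ± 0.266 (n = 5) and 0.829 ± 0.130 FPKM (n = 4) in 2cell embryos. The value ranged from -1.60 to -0.69 over the alternatives other than leaving out a library and from -1.52 to -1.21 when single libraries were left out, and it was called in all of these.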

How the results depend on the processing

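Calls among the 10 genes depended on the length in the values, the scaling, the pseudocount, the filter, the fold threshold and the GC trend. Between genotypes, 0 members were called in MII oocytes under all 22 alternatives, and in 2cell embryos 1 (*Ddx4*) was called per exon length and 1 scaled by depth alone, where 16.1% and 21.3% of all tested genes were, against 0 in all other fits. Between stages in CPEB3+/-, the 2 called became 1 with a pseudocount of 1, a filter of 1 FPKM or the GC trend removed, 3 when scaled to the same sum (with *Ddx4*), without a filter (with *Piwil2*) or without the fold threshold (with *Drosha*), and 5 per exon length or scaled by depth alone, where *Piwil2* and *Ago1* passed the filter mainly through 2cell libraries. As deposited the 2 were *Dicer1* and *Drosha*. In CPEB3-/- the 2 became 1 under those first 3 settings, 3 as deposited, without a filter or with only the 2 groups in the fit, 4 without the fold threshold, 5 when scaled to the same sum or per exon length and 7 scaled by depth alone, and 2 to 3 when single libraries were left out. Of all tested genes in CPEB3-/-, 71.8% were called without the fold threshold, 69.0% scaled to the same sum, 63.6% per exon length and 68.6% scaled by depth alone, so that these counts of 7 or 10 members tested were near or under the background, as were those in CPEB3+/- (73.6%, 69.1%, 64.7% and 69.1%). The third call without a library was *Drosha* without CPEB3-/- MII library C (0.63), 2cell library A (0.59) or 2cell library D (0.62), or *Ddx4* without MII library A (-0.68). The interaction called 0 in all 30 alternatives. *Dicer1* kept its fall in all 31 alternatives of each stage comparison (-3.57 to -2.35 in CPEB3+/- and -3.42 to -2.35 in CPEB3-/-, single libraries aside). *Ago3* lost its call in CPEB3+/- as deposited (-0.52), with a pseudocount of 1 (-0.33) and with the GC trend removed (-0.44), and in CPEB3-/- under the last 2 (-0.36 and -0.42).

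Signs changed only for values that were called neither in the reported fit nor in the alternative, and the cause was not tested. Scaled to the same sum, the log2 values were -0.19 for *Dgcr8* between stages in CPEB3+/-, 0.054 and 0.21 for *Ago2* and *Ago3* between 2cell genotypes, and -0.24 for *Ago2* between stages in CPEB3-/-. With the GC trend removed, *Ago3* stood at 0.21 between 2cell genotypes and 0.020 in the interaction. The interaction of *Dicer1* was -0.027 as deposited and -0.016 scaled by depth alone, and that of *Drosha* -0.043 scaled by depth alone. When single libraries were left out, the interaction ranged from -0.036 to 0.11 for *Dicer1*, -0.0088 to 0.12 for *Drosha* and -0.37 to 0.026 for *Ddx4*, the stage change of *Ago2* in CPEB3-/- from -0.053 to 0.11, and *Ago3* between genotypes from -0.017 to 0.071 in MII and -0.12 to 0.0068 in 2cell.

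Correlations were -0.144 to 0.093 between same-lettered MII libraries and -0.069 to 0.032 between same-lettered 2cell libraries. Between other letters they were -0.21 to 0.218 and -0.155 to 0.117. In each stage 1 CPEB3+/- library correlated best with its own letter, in 2cell library D in a tie with CPEB3-/- library A (0.032). Whether a letter marks a shared collection or preparation cannot be told from these values. With the letter as a replicate block, 0 members were called between genotypes in MII and 0 in 2cell, 2 and 2 between stages and 0 in the interaction. Over all genes the block called 824 in place of 1355 in MII and 414 in place of 2565 in 2cell, where CPEB3+/- library E has no partner. Of the list genes called between genotypes, *Piwil1* in MII alone was called with the block, and *Dhx9* in 2cell embryos was not (log2 -1.07). Higher and lower calls were 588 and 767 in MII, 786 and 591 as deposited, and 1111 and 478 scaled to the same sum. In 2cell they were 1181 and 1384, and 2423 and 573 scaled to the same sum. Between stages in CPEB3+/- they were 6006 and 4503, and 4976 and 5931 scaled to the same sum. Among the other piRNA genes, 2 (*Fkbp6* and *Tex15*, named after their values were seen) of 26 tested were lower in CPEB3-/- embryos per exon length, where 9.28% of all tested genes were, against 0 of 17 on the deposited scale. The DESeq2 alternative was not run, as the values are not counts. A member at 0.1 FPKM already rests on 65.7 to 216 fragments, so the filter and not the depth keeps *Piwil2*, *Ago1* and *Ago4* from the test. Some libraries of each of these genes also lie at or under the floor of 3 fragments, for *Piwil2* 2 of 5 CPEB3+/- MII libraries.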
